A study of Mus musculus with 36 samples.

Results

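Hematopoietic progenitors with a knockout of Taf1 were compared with control progenitors at day 0, before the cells entered the differentiation courses of the study. The comparison used 6 of the 36 RNA-seq libraries of the series, chosen by their labels alone: 3 controls, labelled wild type, and 3 with Taf1 knocked out, all from the table of the macrophage course. The cells were mouse bone marrow hematopoietic stem and progenitor cells, and the other libraries of the series were taken at day 3, day 5 and day 7 of culture. The labels describe a conditional knockout. They give neither the Cre or agent that induced it, nor the stretch of the gene removed, nor the age, strain or sex of the mice. Whether replicates are separate mice is not stated, so p-values reflect the spread among libraries only, and that spread may be technical. In the main fit it was estimated over the 24 libraries of the macrophage course, not over the 6 of day 0 alone. Library preparation used total RNA and a stranded kit in both genotypes, and values are TPM, the deposited measure of transcript abundance, which is corrected for transcript length and adds up to the same total in every library.

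RNA polymerase II starts transcription at a promoter with the help of general transcription factors. The first of these to bind is TFIID, an assembly of the TATA-binding protein and a set of TBP-associated factors, or TAFs, of which TAF1 is the largest and contacts promoter DNA and acetylated histones. Mediator then links TFIID and polymerase to activators bound elsewhere, and P-TEFb releases polymerase that has paused after initiation. In bone marrow, stem and progenitor cells give rise to the erythroid, megakaryocytic, granulocytic, monocytic and lymphoid lineages, each of which switches on its own gene set.

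The 6 libraries were alike in the number of genes detected, between 10502 and 10842 genes at 1 TPM or more. Pearson's r across genes on the log2(TPM + 1) scale was 0.9949 to 0.997 between replicates and 0.9878 to 0.9924 between genotypes, a description over genes, which are not independent replicates. TPM keeps no record of sequencing depth, which is unknown here. The 5 B cell markers summed to 27.9 to 38.5 TPM, nearly all of it Cd79b, a chain of the B cell receptor (27.4 to 37.5 TPM), while Ms4a1, Cd79a and Pax5 stayed at or below 0.67 TPM. The 5 T and NK cell markers summed to 0.24 to 3.07 TPM and the 4 markers of stroma and endothelium to 0.34 to 0.97 TPM. The progenitor markers Kit and Cd34, in contrast, were present at 46.6 to 59.6 TPM and 185 to 271 TPM. The 8 stem and progenitor markers summed to 293, 347 and 289 TPM in the controls and 371, 304 and 353 TPM in the knockouts. The 8 neutrophil markers, led by S100a8 and S100a9, varied far more, with sums of 5130, 3280 and 1160 TPM in controls and 11100, 27600 and 25700 TPM in knockouts. The 2 eosinophil markers summed to 1120, 1820 and 364 TPM in controls and 132, 285 and 611 TPM in knockouts. Control replicate 3 was thus the lowest control for neutrophil and for eosinophil RNA, and results that rest on it are given without it. It also held the largest share of the short structural RNAs Rpph1 and Rmrp. These took 12.6%, 10.2% and 16.1% of TPM in the controls and 12.2%, 14.3% and 12.5% in the knockouts. Its median-of-ratios size factor was the lowest of the 6 libraries, 0.9622 against 1.0822 to 1.1554 in the others. The part of this composition in the calls was not tested. In bulk RNA, fewer cells of a type and less RNA per cell cannot be told apart.

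Of 11953 genes tested, 1568 (13.1%) were higher and 1222 (10.2%) lower in the knockout at an adjusted p under 0.05 (limma, with the spread shared over the 24 libraries of the macrophage course). The changes were mostly small. Among the called genes, 53.8% differed by less than 0.5 on the log2(TPM + 1) scale, and 294 differed by more than 1, of which 77 were higher and 217 lower. The median log2 difference over all tested genes was 0.057. Whether more genes rose than fell depended on the scaling: 56.2% of the called genes were higher with TPM as deposited, 38.1% with median-of-ratios scaling, 66.3% with short structural RNAs and histone genes left out, and 39.7% without control replicate 3. The libraries of the groups did not overlap for 39.8% of all tested genes. In the lists below, the count of members that passed is to be read against 13.1% higher and 10.2% lower, and list sizes count the tested members. Counts in another setting are to be read against its counts over all genes. These were 1166 higher and 1897 lower with median-of-ratios scaling, and 2501 and 1270 with structural and histone genes left out. Fitting the 6 libraries alone gave 1064 and 1062, and no filter on low values 1600 and 1653. Leaving out controls 1, 2 or 3 gave 1631, 1318 or 759 higher and 963, 806 or 1154 lower. Leaving out knockouts 1, 2 or 3 gave 1078, 1293 or 1068 higher and 1025, 881 or 1075 lower. Where a list is given with 0 members in a direction, 0 also passed there at an unadjusted p under 0.05, except for 2 lower p53 targets, 1 higher nucleolar gene, 1 lower proteasome gene and the 3 lists with 0 calls in all, where the count is given.

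Taf1 itself, on chromosome X from 101532734 to 101601789 (mm10, plus strand), was lower in every knockout library. It stood at 14.5, 14.1 and 13.6 TPM in control replicates 1, 2 and 3 and at 8.5, 8.98 and 9.06 TPM in knockout replicates 1, 2 and 3. The groups did not overlap, and the difference was -0.61 ± 0.08 on the log2 scale (SE, n = 3 against 3, limma adjusted p = 1.13e-05), with 14.1 ± 0.491 TPM against 8.85 ± 0.303 TPM (SD). Since TPM counts the whole gene and the labels do not say which exons are removed, the remaining signal does not give the share of cells that recombined.

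Most other TFIID genes were higher in the knockout. Of 16 subunit genes, all tested, 9 rose, 2 fell and 5 did not pass, with a list median of 0.39. The largest rise was in Taf13, whose product pairs with TAF11 through a histone fold and contacts the TATA-binding protein. Taf13 was at 9.51, 8.16 and 6.54 TPM in the controls and 24.2, 17.7 and 24.1 TPM in the knockouts, a log2 difference of 1.34 ± 0.14 (limma adjusted p = 6.06e-07). Taf12, a histone-fold partner of TAF4, was at 33.1, 40.3 and 32.6 TPM and 70.5, 58.8 and 70.1 TPM, with no knockout library within the range of the controls. Taf5 and Taf6, which build the core of TFIID, rose by 0.84 and 0.83, from 10.9 to 12.3 TPM and 31.6 to 34.1 TPM in controls to 21.4 to 22.6 TPM and 55.1 to 62.8 TPM in knockouts. Taf4a, Taf4b, Taf3, Taf10 and Taf9 rose by 0.35 to 0.65. Taf4b did not pass without control replicate 3 (adjusted p = 0.0523) nor Taf9 without control replicates 2 or 3 or knockout replicates 1 or 3 (adjusted p of 0.0594 to 0.115). Besides Taf1, the gene that fell was Taf8, whose product brings the TAF2 and TAF10 subunits into the complex, at 16.3, 17.1 and 14.2 TPM in controls and 9.94, 10.3 and 11.4 TPM in knockouts. Tbp, the TATA-binding protein gene, was at 18.2, 20.4 and 17 TPM and 22.2, 20.1 and 21.2 TPM, and the groups overlapped (log2 difference 0.19 ± 0.1, limma adjusted p = 0.213). Taf7, Taf11, Taf2 and Taf9b had log2 differences of 0.14 to 0.42 and did not pass either.

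**Figure D1:**
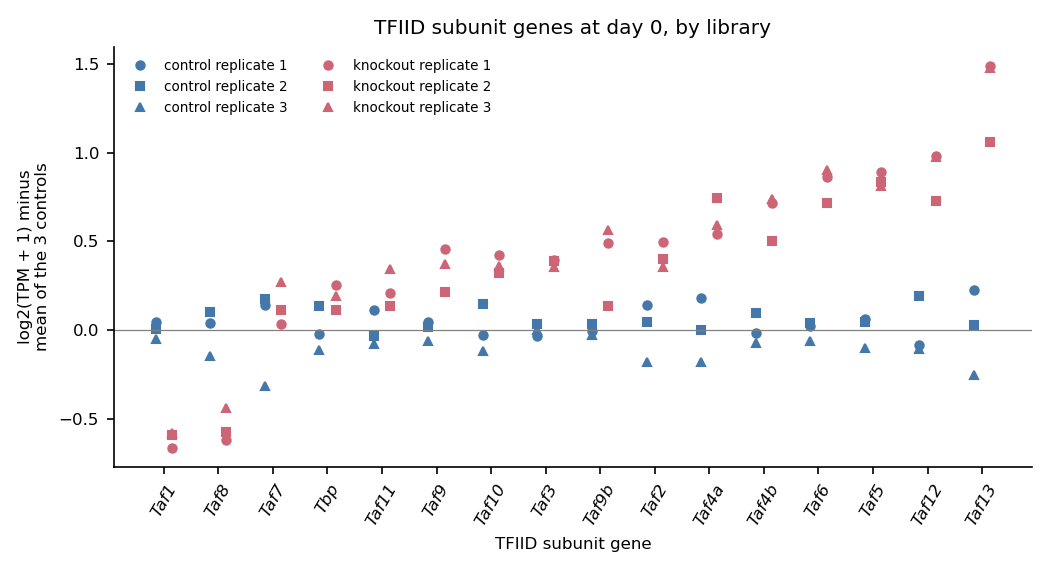
Each point is 1 library, as log2(TPM + 1) minus the mean of the 3 controls, for the 16 TFIID subunit genes ordered by their difference. Knockout libraries (red) lie below the controls (blue) for Taf1 and Taf8 and above them for Taf12 and Taf13, while for Tbp and Taf7 the groups overlap.

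SAGA, a coactivator that shares several TAFs with TFIID, gave another count. Of its 16 listed genes 1 rose and 1 fell, and the median was 0.05, next to 0.057 over all genes. The riser was Supt3, at 9.64, 8.26 and 6.67 TPM in controls and 9.27, 12.9 and 10.3 TPM in knockouts, with overlapping groups and a call that was lost without control replicates 2 or 3 or knockout replicates 2 or 3 (adjusted p of 0.0726 to 0.246). Tada1, an adaptor subunit, fell by 0.26 and lost its call without control replicates 1 or 2 or knockout replicates 2 or 3 (0.0626 to 0.114).

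Among the 18 genes of the other general transcription factors, 7 rose, 0 fell and 11 did not pass, with a median of 0.30. Gtf2b, the factor that bridges TFIID and polymerase, was at 65.2, 64.9 and 55 TPM in controls and 99.3, 91.4 and 96.4 TPM in knockouts. Gtf2a1 and Gtf2a2 encode TFIIA, which stabilises TBP on DNA. Gtf2a1 stood at 12.8, 11.8 and 9.58 TPM in the controls and 19.5, 20.8 and 20.3 TPM in the knockouts, a rise of 0.78 ± 0.16 (limma adjusted p = 0.00118). Gtf2h1, of the helicase-carrying TFIIH, rose by 0.58 without overlap of the groups. Without control replicate 3, 3 of the 18 genes passed, and without knockout replicate 1, 4 passed. With structural and histone genes left out, 11 rose.

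Genes of polymerase II itself mostly did not pass: 2 of 12 rose, 0 fell, and the median was 0.16. Polr2a, the catalytic subunit gene, was at 16.6, 13.7 and 11 TPM in controls and 34.7, 88.2 and 31.6 TPM in knockouts. All knockout libraries exceeded the controls, but replicate 2 stood far above the others, so the log2 difference of 1.69 ± 0.3 (limma adjusted p = 0.000329) averages unequal libraries. Polr2b, the second largest subunit, rose by 0.37 (adjusted p = 0.0276) and lost its call without control replicates 2 or 3 or knockout replicates 1 or 3 (0.0568 to 0.111). Mediator had 10 risers and 2 fallers among 30 genes, with a median of 0.22. Ccnc, the cyclin of its kinase module, was at 10.2, 11.7 and 8.29 TPM in controls and 16.3, 14.2 and 16.6 TPM in knockouts, and Med10 rose by 0.53. Med11 fell by 0.52 and Med16 by 0.42, both without overlap. The Mediator count was 2 risers without control replicate 3, 5 without knockout replicate 1 or with the 6 libraries fitted alone, and 6 without knockout replicate 3.

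Pausing and elongation factors, 22 genes, had 3 risers and 1 faller, or 5 risers without knockout replicate 2 or with structural and histone genes left out. The genes with the smallest p values, Hexim1 and Larp7, act on the same particle, the 7SK RNA complex that holds P-TEFb inactive, and went in opposite directions. Hexim1, the P-TEFb inhibitor in that particle, was at 9.94, 8.33 and 8.32 TPM in controls and 21.2, 20.1 and 19.7 TPM in knockouts. The groups were far apart, with a log2 difference of 1.12 ± 0.1 (limma adjusted p = 1.17e-07). Larp7, which binds and protects the 7SK RNA, was at 49.7, 54.2 and 48.4 TPM in controls and 29.1, 18.4 and 28.2 TPM in knockouts, and fell by 1.01 (limma adjusted p = 1.44e-05). Cdk9, the kinase of P-TEFb, rose from 22, 21.6 and 19.4 TPM to 26.6, 30.1 and 26.6 TPM, and Supt4a, a subunit of the elongation factor DSIF, rose by 0.26, but did not pass without control replicate 3 (adjusted p = 0.0643) or knockout replicate 1 (0.0747).

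**Figure D2:**
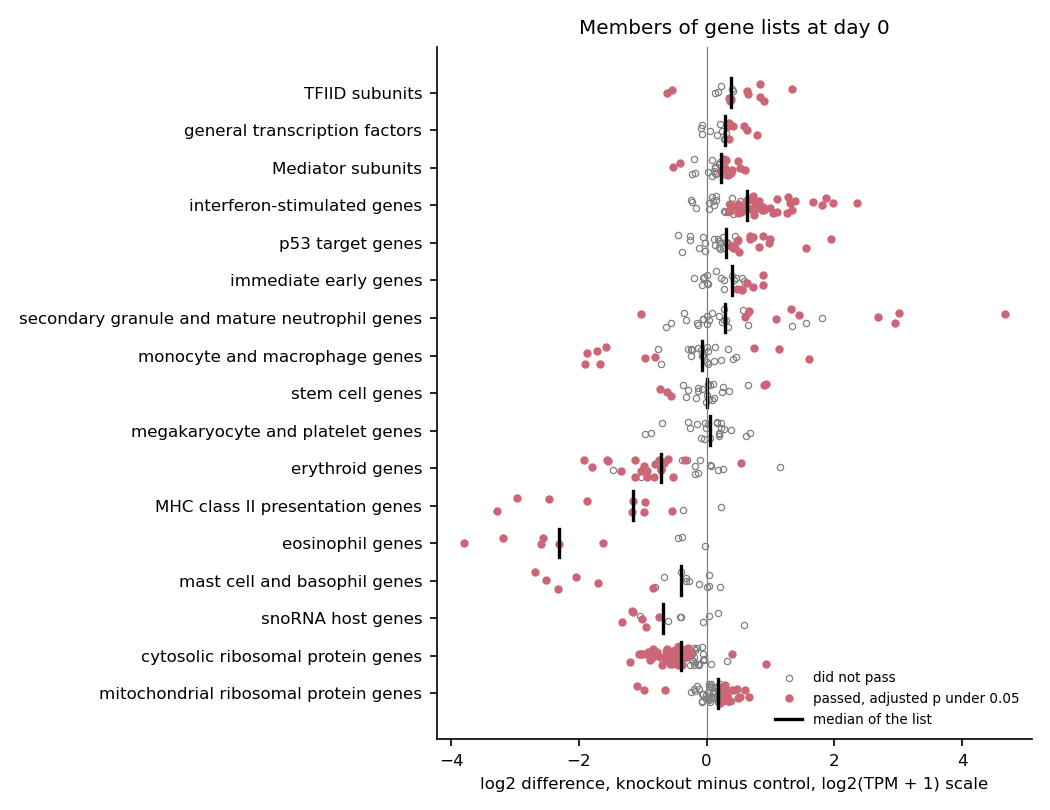
Each point is a tested member of a gene list, placed by its log2 difference between knockout and control at day 0, filled where the adjusted p was under 0.05, with a bar at the list's median. Interferon-stimulated genes lie mostly to the right of 0 (median 0.63), whereas class II presentation (median -1.15), eosinophil (median -2.31) and erythroid genes (median -0.71) lie mostly to the left.

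Interferon-stimulated genes formed the list with the highest share of risers. Of 58 tested members 40 rose, 0 fell and 18 did not pass, against 13.1% of all genes higher, and the median was 0.63. The list does not hold every interferon-inducible gene. Outside it, Ifi205 had a difference of -2.28 (limma adjusted p = 2.81e-06). Ifitm1, counted in the mast cell and basophil list, had a difference of -1.7 and passed. These genes are switched on through the factor ISGF3, which binds a purine-rich element made of repeated GAAA steps. The sequence GAAA, 2 bases of any kind and GAAA again, searched on both strands from 250 bases before to 50 after the start site, was found in 18 of 30 risers with a RefSeq promoter (60%) and in 7 of 15 members that did not pass (46.7%). It occurred in 3.96% of the 9644 tested genes with a promoter and in 3.44% of all 32851 promoters of the table, and matches may overlap other GAAA steps. The stretches around the first match found are shown for 4 risers to let the element be seen beside the levels, with every match on either strand in capitals, from RefSeq on GRCm38.p6.
Oas1a (chr5:120907516-120907565, minus strand): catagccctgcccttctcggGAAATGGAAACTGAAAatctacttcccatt
Isg15 (chr4:156200867-156200916, minus strand): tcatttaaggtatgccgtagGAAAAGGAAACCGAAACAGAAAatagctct
Ifih1 (chr2:62646206-62646243, minus strand): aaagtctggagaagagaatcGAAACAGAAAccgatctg
Ifit1 (chr19:34640784-34640833, plus strand): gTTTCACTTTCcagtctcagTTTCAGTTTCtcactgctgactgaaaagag
The Oas1a stretch holds 2 overlapping matches, the first beginning 20 bases before the annotated start, and that of Isg15 holds 3, from 78 bases before it. Ifih1 has 1 match, 32 bases after the start. The 2 matches of Ifit1 lie on the opposite strand and are therefore seen as their reverse complement, with the one nearer the start beginning 85 bases before it. Oas1a has a close paralog, Oas1g, that can share its reads, so its level is uncertain.

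Effectors that act on viral RNA were well separated between the groups. Oas1a, a sensor of double-stranded RNA that activates RNase L, was at 22.1, 20.5 and 16.9 TPM in controls and 80.1, 71.6 and 72.2 TPM in knockouts (log2 difference 1.87 ± 0.14, limma adjusted p = 8.66e-09). Ifih1, the cytoplasmic RNA sensor MDA5, was at 8.75, 7.28 and 6.12 TPM and 13.7, 13.8 and 13.4 TPM, and rose by 0.81 ± 0.1. Rtp4, a chaperone of membrane receptors and an interferon effector, went from 2.73, 3.38 and 2.03 TPM to 9.64, 7.15 and 9.35 TPM. None of these knockout libraries reached into the control range. Isg15, a ubiquitin-like modifier, stood at 3.2, 2.68 and 1.51 TPM against 13, 9.7 and 14.6 TPM, and Usp18, the protease that removes it and damps receptor signalling, at 2.43, 2.84 and 1.52 TPM against 11.6, 10.2 and 8.98 TPM. Irf7, the factor that amplifies interferon production, rose by 1.67 from 4.59, 4.58 and 3.74 TPM to 18.1, 12.2 and 18 TPM. Levels stayed modest in absolute terms, since apart from Oas1a each of these was under 20 TPM in every library. Abundant members of the list did not pass: Bst2, the virion tether, was at 74.4, 96.4 and 73.5 TPM and 100, 85.4 and 113 TPM, and Ifitm3 at 118, 129 and 101 TPM and 157, 121 and 145 TPM, both with overlapping groups. Ifit1, which binds viral RNA ends and was named after its values were seen, rose from 0.55, 0.82 and 0.65 TPM to 4.04, 2.6 and 3.15 TPM. Ifi44 and Cxcl10, a chemokine, were low as well, at 0.46, 0.67 and 0.43 TPM and 0.24, 0.21 and 0.25 TPM in controls and 2.34, 1.5 and 2.62 TPM and 1.89, 1.62 and 2.22 TPM in knockouts.

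Sensors, ligands and receptors of the interferon system formed a list of their own. Of its 22 genes 8 rose and 2 fell, with a median of 0.22. Socs1, a feedback inhibitor of the receptors, rose from 1.48, 1.16 and 1.07 TPM to 2.72, 2.36 and 2.83 TPM, and Adar, which edits double-stranded RNA, by 0.54. Ifngr2, Irf5 and Tbk1 rose by 0.45 to 0.50. Mavs, the mitochondrial adaptor of the RNA sensors, fell by 0.46 from 11.2, 11.7 and 11.2 TPM to 8.61, 7.33 and 8.01 TPM. Tlr3 was near 0 in all libraries and its call was lost without any 1 of 5 libraries, control replicate 3 being the exception (adjusted p of 0.0548 to 0.155). Class I presentation and immunoproteasome genes gave 1 riser and 1 faller among 21. H2-D1 rose by 0.41 but lost the call without control replicates 1 or 3 or knockout replicates 1 or 3 (0.0768 to 0.145), and B2m, the invariant chain of class I, was at 1311, 1335 and 1151 TPM and 1421, 1241 and 1476 TPM with overlap.

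Targets of p53 rose in part. Of 36 genes 15 rose and 0 fell, the median was 0.31, and without knockout replicate 3 the count was 9. Among targets that did not pass, Mdm2, Sesn2 and Fas had differences of 0.21, 0.20 and 0.13, and Sesn1 and Perp of -0.38 and -0.45. Cdkn1a, the p21 inhibitor of cyclin-dependent kinases, was at 1.57, 2.19 and 1.35 TPM in controls and 9.47, 9.38 and 9.24 TPM in knockouts (1.95 ± 0.18, limma adjusted p = 1.57e-07). Among pro-apoptotic targets, Pmaip1 was at 1.54, 1.98 and 1.01 TPM and 5.45, 6.71 and 6.9 TPM, and Bbc3 at 2.81, 2.92 and 2.49 TPM and 6.06, 5.36 and 6.27 TPM, encoding the BH3 proteins NOXA and PUMA. Both groups were apart in each case. Bax, the pore-forming protein they unleash, rose by 0.49 and lost its call without knockout replicate 3 (adjusted p = 0.0565). Ccng1, a cyclin that feeds back on p53, rose from 36.3, 40.3 and 33.7 TPM to 78.7, 63.4 and 81.6 TPM, while Trp53inp1 and Phlda3 rose by 0.82 and 0.98. Trp53 itself, encoding p53, was at 60.3, 58.4 and 50.4 TPM and 58.4, 57.8 and 60.7 TPM and the groups overlapped. In the BCL2 family as a whole, 3 of 17 rose, which are Bax, Bbc3 and Pmaip1 again (5 with structural and histone genes left out), and 1 fell: Bcl2, the survival protein, at 15.7, 18.5 and 13.6 TPM in controls and 10.8, 10.2 and 11.4 TPM in knockouts. Bcl2 did not pass without control replicate 2 (adjusted p = 0.112), knockout replicate 1 (0.0576) or knockout replicate 2 (0.074).

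Shares of called genes of the cell cycle were near or below those of all genes. S phase genes gave 2 risers and 2 fallers of 38, with a median of 0.03, and Pcna, the replication clamp, was at 501, 593 and 471 TPM and 595, 550.1 and 615 TPM with overlap. Gins1, of the replicative helicase, fell by 0.69, from 52.6, 58.7 and 47.7 TPM to 33.3, 31.8 and 32 TPM. Cdt1, which licenses origins, fell by 0.35, and Pole and Rfc4 rose by 0.43 and 0.47. The calls for Cdt1 and Rfc4 were each lost without some single libraries (Cdt1 without control 2 or 3 or knockout 1 or 2, 0.0578 to 0.0863, and Rfc4 without control 3 or knockout 1 or 3, 0.0685 to 0.0919). Of 29 mitotic genes 4 rose and 0 fell, with Kif20a rising most (0.54), and 1 rose without control replicate 2, control replicate 3 or knockout replicate 1, but 7 without control replicate 1. G1 cyclins, kinases and inhibitors gave 2 risers of 18, Cdkn1a and Rb1, the latter losing its call without control replicate 3 (0.0901), knockout replicate 2 (0.0545) or knockout replicate 3 (0.0867).

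Immediate early genes, which respond within minutes to signals and to handling of cells, gave 7 risers and 0 fallers of 23, with a median of 0.39. Fos and Junb had differences of 0.59 and 0.55 and did not pass. Jun, Fosb, Egr1 and Egr2 had differences of -0.08 to 0.03 and did not pass either, while Jund passed with 0.64. Ier3, an early stress-response gene, was at 6.3, 7.18 and 6.04 TPM in controls and 14.4, 10.4 and 13.9 TPM in knockouts, and Rhob, a small GTPase, at 51.9, 40 and 39.6 TPM and 59, 73.2 and 61.7 TPM. Without control replicate 3 or without knockout replicate 3 the count was 3. Heat shock genes gave 1 riser and 2 fallers of 23. Hsp90ab1, a constitutive chaperone, fell by 0.61, from 1269, 1235 and 1134 TPM to 894, 653 and 851 TPM, and Bag3, a co-chaperone, by 0.88. ATF4 and unfolded protein response genes (24) and glycolysis and hypoxia genes (22) had 0 calls in either direction (limma), with 1 lower in each at an unadjusted p under 0.05, and of 22 sterol synthesis genes 1 rose, Ebp. Inflammatory cytokine and feedback genes gave 4 risers and 1 faller of 24, with Tnf at 2.69, 2.5 and 2.55 TPM and 5.19, 4.13 and 6.48 TPM, a call lost without any single library but knockout replicate 2 (adjusted p of 0.0828 to 0.169). Ccl9, a chemokine, fell by 0.85, and 2 of the 24 rose without control replicate 3.

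Granulocytic genes divided. Of 34 genes of secondary granules and mature neutrophils, 9 rose, 1 fell and 24 did not pass, with a median of 0.29. S100a8, a subunit of calprotectin, was at 3086, 1922 and 820.5 TPM in controls and 8172, 17399 and 15986 TPM in knockouts. Control replicate 3 was the lowest and knockout replicate 1 the lowest of its group, yet the groups did not overlap. Together S100a8 and S100a9 made up 0.472%, 0.291% and 0.109% of all TPM in the controls and 1.1%, 2.69% and 2.48% in the knockouts (two-sided exact permutation p = 0.1, the smallest that 3 against 3 allows). Chil3, a chitinase-like protein of neutrophils and macrophages with a close paralog that can share its reads, had the largest rise of all genes named, from 50.4, 38.7 and 8.63 TPM to 402, 1176 and 688 TPM. Lcn2, an iron-sequestering granule protein, went from 28.6, 26.7 and 10.2 TPM to 50.5, 199 and 233 TPM. Ltf, Camp and Ngp, granule proteins of the same stage, did not pass with all libraries. Ltf (lactoferrin) was at 9.64, 19.6 and 0.99 TPM and 3.34, 60.6 and 69.8 TPM, Camp (cathelicidin) at 315, 247 and 53.9 TPM and 88.7, 387 and 482 TPM, and Ngp at 80, 100 and 10.5 TPM and 31.7, 226 and 326 TPM, all with overlapping groups and control replicate 3 lowest. Without knockout replicate 1, Ltf passed with a log2 difference of 3.12 in place of 1.81 (adjusted p = 0.00254) and Ngp with 2.58 in place of 1.56 (0.0143), and Ltf also passed without control replicate 2 (0.0477). Mmp8, Cxcr2 and Retnlg, genes of mature neutrophils, reached at most 2.7 TPM in any library. Without control replicate 3 the list had 4 risers, without knockout replicate 2 it had 5, and without knockout replicate 3 it had 4, but 12 without knockout replicate 1 and 10 without control replicate 1. In a fit of the 6 day 0 libraries alone it had 5. S100a6, a calcium-binding protein, was the 1 faller.

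Primary granule genes, made earlier in granulocyte development, gave 1 riser and 1 faller of 15. Ctsc, the protease that activates the granule enzymes, rose from 35.2, 34.6 and 28.6 TPM to 59.5, 57.8 and 55.2 TPM, and Cst7, a cystatin, fell by 0.98. Mpo (myeloperoxidase) was at 6179, 3832 and 4328 TPM and 4885, 5482 and 4422 TPM with overlap. Elane (neutrophil elastase) was higher in all knockout libraries, 3151, 4986 and 3336 TPM against 2972, 1572 and 1694 TPM, but did not pass (log2 difference 0.91 ± 0.56, limma adjusted p = 0.259).

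Of 30 monocyte and macrophage genes, 3 rose, 7 fell and 20 did not pass, and the median was -0.08. The share of risers was below the 13.1% of all genes, and that of fallers above the 10.2%. The fallers included genes of inflammatory monocytes. Ly6c2, whose near-identical neighbour Ly6c1 can share its reads, was at 1426, 809.9 and 1027 TPM in controls and 298, 412 and 297 TPM in knockouts, and Ccr2, the chemokine receptor for marrow exit, at 41.9, 51.4 and 34.9 TPM and 9.04, 11.7 and 11.2 TPM. The highest knockout library was below the lowest control for both. Cx3cr1, a receptor of patrolling monocytes and precursors, fell by 1.71 from 7.93, 9.57 and 7.3 TPM to 1.42, 1.99 and 2.07 TPM, S100a4 by 1.87, and Adgre1, the F4/80 antigen, by 0.96. Rising members were Lyz2 (lysozyme), from 225, 192 and 157 TPM to 396, 769.8 and 633 TPM, Cd14, an endotoxin co-receptor, from 3.37, 2.32 and 2.97 TPM to 6.41, 8.4 and 7.78 TPM, and Sirpa, by 0.75. Csf1r, the M-CSF receptor, rose by 0.41 and lost its call without knockout replicate 2 (adjusted p = 0.0538) and under median-of-ratios scaling (0.083). Over the 8 monocyte markers the summed level was 1520, 909 and 1110 TPM in controls and 355, 480 and 367 TPM in knockouts, most of it Ly6c2. The summed neutrophil markers were higher in the same knockout libraries, and their part in the rise of Lyz2, Cd14 and Sirpa was not tested.

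**Figure D3:**
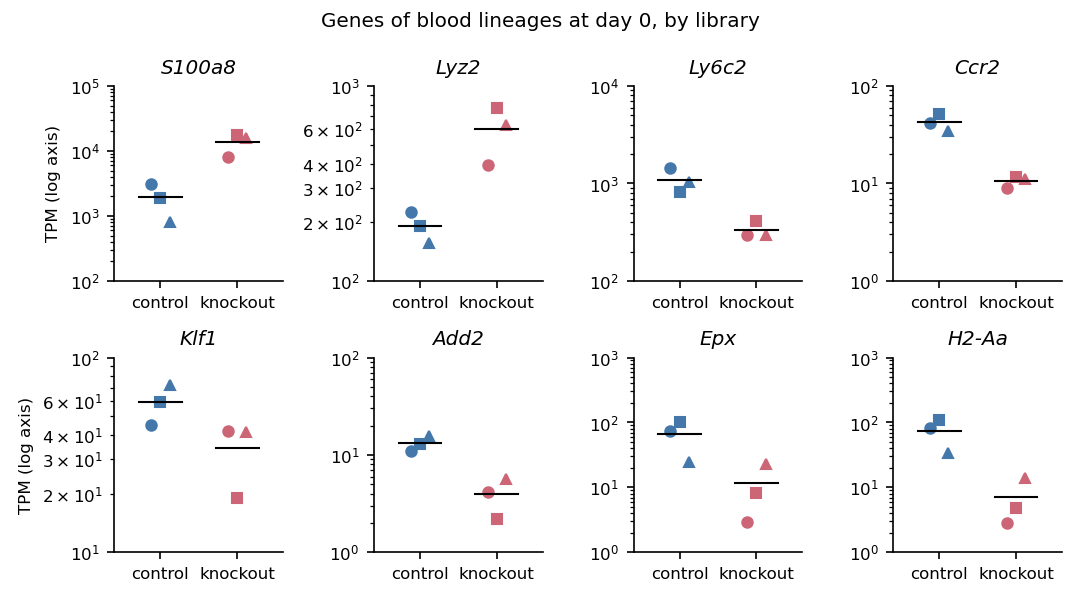
Level of 8 lineage genes in each library, in TPM on a log axis, with circles, squares and triangles for replicates 1, 2 and 3 and a bar at the group mean. S100a8 and Lyz2 are higher in all 3 knockout libraries, and Ly6c2, Ccr2, Klf1, Add2, Epx and H2-Aa lower, with control replicate 3 close to knockout replicate 3 for Epx.

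Class II presentation had 9 fallers of 11 genes and 0 risers, against 10.2% of all genes lower, with a median of -1.15. H2-Aa, an antigen-presenting chain, was at 81.7, 107 and 33.8 TPM in controls and 2.82, 4.8 and 14.1 TPM in knockouts, H2-Ab1 at 88.5, 118 and 46.4 TPM and 16.7, 18.6 and 28.2 TPM. Control replicate 3 was the lowest control and knockout replicate 3 the highest knockout, with a gap left between them. H2-DMa, which loads peptide, was more even, at 56.2, 67.9 and 52.1 TPM and 28.1, 27.5 and 32.8 TPM (fell by 0.97, limma adjusted p = 7.19e-07). The 5 dendritic cell markers summed to 6.42, 8.71 and 4.79 TPM in controls and 2.28, 2.15 and 3.88 TPM in knockouts, and their part in the class II values was not tested. Of 14 dendritic cell genes tested, of 19 listed, 4 fell and 0 rose. Zbtb46 and Batf3, factors of conventional dendritic cells, fell by 0.75 and 1.29, the latter from 1.91, 3.31 and 0.82 TPM to 0.10, 0.18 and 0.21 TPM. Itgax, encoding CD11c, fell by 1.02, but did not pass without control replicate 2 (adjusted p = 0.0517). With no filter on low values 7 dendritic cell genes fell.

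Lymphoid genes were mostly low: 10 of 22 listed genes of B cells and lymphoid progenitors were tested, and 5 of 20 of T and NK cells. Of these, 3 in each list fell and 0 rose. Dntt, the terminal transferase of lymphoid-primed progenitors, was at 71.6, 129 and 53.3 TPM in controls and 21.9, 25.3 and 50.3 TPM in knockouts, close between control replicate 3 and knockout replicate 3. Cd72 and Cd22 fell by 1.19 and 0.72. Nkg7, a granule membrane protein of cytotoxic and early myeloid cells, fell by 1.55 from 484, 307 and 297 TPM to 118, 124 and 119.9 TPM, which did not pass without control replicate 1 (adjusted p = 0.0612). Klrd1 and Lck fell by 0.77 and 0.81. The defining markers Cd3e and Ms4a1 were at or near 0 in both genotypes, and the 5 T and NK cell markers summed to at most 3.07 TPM in a library. Without control replicate 3, 5 B cell and lymphoid genes fell, and with no filter on low values 7 of these and 8 T and NK cell genes fell.

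Eosinophil genes had the lowest median of the lists described, -2.31, with 6 fallers of 9 tested (11 listed) and 0 risers. Epx (eosinophil peroxidase) was at 73.6, 103 and 24.3 TPM in controls and 2.9, 8.33 and 23.4 TPM in knockouts. Prg2 (major basic protein) was at 1051, 1720.5 and 339.9 TPM and 129, 276 and 588 TPM, so control replicate 3 lay below knockout replicate 3. Its call was lost without control replicates 1 or 2 or knockout replicates 1 or 2 (adjusted p of 0.0631 to 0.17), and without knockout replicate 1 its difference was -1.07 in place of -1.62. The ribonucleases Ear1, Ear2 and Ear6 fell by 2.55 to 3.8, but are near-identical paralogs whose reads may be divided among them, and Ear2 lost its call without control replicate 2 (0.0971) or knockout replicate 1 (0.0842). When the 6 day 0 libraries were fitted alone, 2 of the 9 genes passed. Mast cell and basophil genes gave 6 fallers and 0 risers of 17. Mcpt8, a basophil protease, fell from 193, 245 and 63.4 TPM to 12.3, 33.4 and 24.3 TPM, and Gzmb (granzyme B) from 4.82, 9.17 and 4.77 TPM to 0.17, 0.28 and 0.21 TPM. Prss34 and Fcer1a, the IgE receptor chain, overlapped between groups, and their calls were lost without single libraries (Prss34 without any but control 3 or knockout 2, 0.0554 to 0.221, and Fcer1a without control 1 or 2 or knockout 1, 0.0617 to 0.119). Without knockout replicate 1 the difference of Prss34 was -1.34 in place of -2.32. Of the 17 genes 3 fell without control replicate 1, without control replicate 2 or without knockout replicate 1. Cpa3, the mast cell carboxypeptidase, was at 60.8, 74.7 and 37.6 TPM and 37.5, 47.6 and 52.9 TPM.

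Erythroid genes, the longest lineage list, had more fallers by count than any other lineage list. Of 37 tested genes 23 fell, 1 rose and 13 did not pass, with a median of -0.71. Add2, a membrane skeleton gene encoding adducin, was at 10.9, 13 and 15.6 TPM in controls and 4.17, 2.18 and 5.61 TPM in knockouts (log2 difference -1.55 ± 0.18, limma adjusted p = 2.81e-06). Blood group genes Kel and Ermap fell by 0.98 and 0.8, and Tspo2, a red cell cholesterol transporter, by 1.34. Knockout replicate 2 was the lowest library for each of these, and the groups did not overlap.

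The regulators of the erythroid program were uneven among the knockouts as well. Klf1, its master regulator, was at 44.8, 59.2 and 72.3 TPM in controls and 42.2, 19.1 and 41.4 TPM in knockouts, with replicate 2 lowest. Without that library the difference was -0.46 in place of -0.82 and did not pass (adjusted p = 0.0683), nor did it without control replicate 3 (0.0675). Gata1, the factor shared with megakaryocytes and eosinophils, was at 29.1, 37.7 and 37.5 TPM and 25.1, 14 and 25.2 TPM, and its call at an adjusted p of 0.0476 was lost without control replicates 2 (0.127) or 3 (0.144) or knockout replicate 2 (0.247, difference -0.44 in place of -0.71). Gfi1b, a repressor needed in the same lineages, fell by 0.97, or 0.63 without knockout replicate 2. Epor, the erythropoietin receptor, fell by 0.68, a call lost without control replicates 2 (0.0713) or 3 (0.102) or knockout replicate 2 (0.192, difference -0.37). The count of fallers was 15 without knockout replicate 2, 14 with a pseudocount of 0.1 TPM and 10 when the 6 libraries were fitted alone. Car1, the most abundant member, carbonic anhydrase of erythroid progenitors, was at 394, 565 and 550.2 TPM and 731, 286 and 655 TPM, and Car2 at 240.4, 338 and 328 TPM and 352, 164 and 355 TPM. Both overlapped and did not pass. Globin genes varied between libraries of a group. Hba-a1 was at 0.47, 28.5 and 3.66 TPM and 0, 8.55 and 0 TPM, Hbb-bs is listed at 0 in all 3 knockouts and in control replicate 1, and Alas2, of heme synthesis, reached at most 0.38 TPM. The 1 riser was Slc25a37, the mitochondrial iron importer, by 0.54, with a call lost without control replicates 2 (0.0767) or 3 (0.168) or knockout replicate 2 (0.131).

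Megakaryocyte and platelet genes, the lineage nearest to the erythroid one, had 0 calls in either direction among 23 and a median of 0.05 (limma at an adjusted p under 0.05). At an unadjusted p under 0.05, 1 was higher and 2 were lower. Pf4 (platelet factor 4) was at 96.1, 142 and 75.7 TPM and 93.3, 119.6 and 129.8 TPM, and Itga2b, the integrin of platelets and early progenitors, at 31.4, 48.6 and 29.5 TPM and 18.6, 21.5 and 24.9 TPM without overlap (log2 difference -0.70 ± 0.28, limma adjusted p = 0.0747).

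Stem cell genes gave 2 risers and 3 fallers of 24 tested (28 listed), with a median of 0.01. Ly6a (Sca-1), a stem cell surface antigen that interferon also induces, was at 4.76, 5.23 and 3.11 TPM in controls and 9, 6.04 and 12.8 TPM in knockouts, and Esam, an adhesion molecule, at 2.26, 2.59 and 1.6 TPM and 5.09, 5.18 and 4.69 TPM. Ly6a did not pass without control replicate 3 (adjusted p = 0.0797) or knockout replicate 3 (0.0823). Angpt1, a niche ligand for TIE2, fell by 0.73, Mllt3 by 0.62 and Eng (endoglin) by 0.56. Angpt1 was lost without control replicate 2 (0.0952) or knockout replicate 2 (0.0824), Mllt3 without knockout replicate 2 (0.0544), and without that library 1 of the 24 fell. Procr (EPCR), a marker of long-term stem cells, was at 1.82, 1.94 and 1.57 TPM and 1.9, 1.3 and 2.63 TPM, and Mecom at 1.7, 2.18 and 1.74 TPM and 2.04, 1.29 and 1.6 TPM. Of 22 progenitor genes 2 rose (Spi1 and Runx1) and 1 fell, Cd27, a receptor of the tumor necrosis factor family on multipotent and lymphoid-biased progenitors, from 34.9, 40.8 and 34.6 TPM to 23.4, 14.2 and 21 TPM. Flt3, a receptor of the same progenitors, was at 35.4, 48.8 and 29.2 TPM and 34.6, 26.6 and 40.6 TPM with overlap.

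Lineage transcription factors had 3 risers and 3 fallers of 30. The fallers were Klf1, Gata1 and Gfi1b, 1 of which fell without knockout replicate 2 and 0 in a fit of the 6 libraries alone, while 5 of the list fell under median-of-ratios scaling or with a pseudocount of 5 TPM and 1 with 0.1 TPM. With structural and histone genes left out 5 rose. Id1, an inhibitor of basic helix-loop-helix factors, rose most, from 8.22, 4.88 and 6.98 TPM in the controls to 25.1, 30.9 and 23 TPM in the knockouts (1.84 ± 0.21, limma adjusted p = 2.41e-06). Spi1 (PU.1), which directs myeloid fate, was at 123, 108 and 99.8 TPM and 151, 171 and 151 TPM and rose by 0.52. Runx1 rose by 0.42, a call lost without control replicates 1 (0.0592) or 3 (0.117) or knockout replicate 2 (0.14). Cebpa and Irf8, which act beside PU.1 in granulocytes and monocytes, were at 72.3, 65.5 and 67 TPM and 137, 161 and 133 TPM in controls and 76.1, 79 and 63.8 TPM and 136, 133 and 134 TPM in knockouts, with overlap. Cytokine receptors gave 3 risers (Csf2rb, Il6ra and Csf1r) and 1 faller (Epor) of 24. Il6ra rose by 0.55, a call lost without control replicates 2 (limma adjusted p = 0.0556) or 3 (0.0507) or knockout replicate 2 (0.0798). Csf2rb, the shared receptor chain for IL-3 and GM-CSF, was at 25.4, 19.5 and 16.6 TPM and 33.7, 47.4 and 37.8 TPM, a call lost without control replicate 3 (0.0638) or knockout replicate 2 (0.0569). Without control replicate 3 the list had 1 riser and without knockout replicate 2 it had 0, but 5 rose without control replicate 1 and 6 with structural and histone genes left out. Kit, the receptor for SCF, was at 59.6, 53.9 and 46.6 TPM and 47.6, 59 and 47 TPM.

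Cytosolic ribosomal protein genes fell as a group. Of 87, 58 fell, 2 rose and 27 did not pass, with a median of -0.40, and their share of all TPM was 23.6%, 24.9% and 23% in the controls against 18.5%, 16.4% and 17.8% in the knockouts (23.9 ± 0.99% against 17.5 ± 1.03%, SD, two-sided exact permutation p = 0.1, the smallest possible). The groups did not overlap in that share. Rpl23a, a large-subunit protein, was at 4289.7, 4471 and 4018 TPM and 2476, 2209.7 and 2330.2 TPM, and Rps12, of the small subunit, at 7949, 8259 and 7871 TPM and 4757, 4272 and 4472 TPM. Rps6, the substrate of S6 kinase, fell by 0.95. Rpl41 was at 5700.2, 6193 and 5627 TPM and 5778, 5259 and 5779 TPM with overlap, so the decrease was not equal over the list. The genes that rose, named after their values were seen, were Rpl26, from 266, 350.4 and 266 TPM to 658, 476 and 558 TPM, and Rpl7l1, by 0.40, which did not pass without control replicate 3 (adjusted p = 0.0935) or knockout replicate 1 (0.0891). These genes have many processed copies in the genome that can share their reads. With TPM a fixed total, a smaller ribosomal share raises all other genes, and the median of all genes moved from 0.057 to -0.017 under median-of-ratios scaling. Under that scaling 70 of the 87 ribosomal genes fell.

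Host genes of small nucleolar RNAs, many of which begin with the pyrimidine-rich start known from ribosomal protein genes, gave 6 fallers and 0 risers of 14, with a median of -0.68. Snhg8 was at 48.1, 55.2 and 52.8 TPM and 21.8, 18.7 and 20.1 TPM, Snhg6 at 94.4, 96.1 and 92.2 TPM and 46.3, 37.5 and 40.2 TPM, and Dancr at 5.64, 7.45 and 5.43 TPM and 2.63, 1.75 and 2.26 TPM. No knockout library reached a control in any of them. Gas5 fell by 0.75, a call lost without control replicates 1 (0.0515) or 2 (0.0991) or knockout replicates 1 (0.0575) or 2 (0.0898). Nucleolar and Myc-associated genes, many of which serve ribosome assembly, gave 2 fallers and 0 risers of 32. These were Srm (spermidine synthase), by 0.50, and Gnl3 (nucleostemin), by 0.47, the latter lost without any library but control replicate 3 or knockout replicate 1 (0.0627 to 0.161). Myc was at 108, 100.2 and 94.6 TPM and 138, 115 and 117 TPM and Npm1 at 1359, 1557 and 1326 TPM and 1329, 913 and 1232 TPM, and neither passed.

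Mitochondrial ribosomal protein genes, encoded in the nucleus, gave 18 risers and 3 fallers of 77 and a median of 0.18. The largest differences were those of Mrps28 and Mrpl54, which fell. Mrps28 was at 107, 109.5 and 110.5 TPM in controls and 53.2, 47.5 and 52.2 TPM in knockouts, Mrpl54 at 161, 167 and 157 TPM and 85.6, 77.7 and 82.6 TPM, and Mrpl48 fell by 0.64. Mrps24 and Mrpl57 rose by 0.66 and 0.60. The count of risers was 9 without control replicate 1, 8 without control replicate 3, 6 without knockout replicate 1 and 10 without knockout replicate 3, and under median-of-ratios scaling 12 rose and 6 fell. Oxidative phosphorylation genes gave 13 risers and 3 fallers of 79, with a median of 0.09. This balance turned with the scaling, to 8 risers and 10 fallers under median-of-ratios scaling and to 25 and 3 with structural and histone genes left out. Over all genes the first setting gave 1166 higher and 1897 lower, and the second 2501 and 1270. Ndufb10, of complex I, rose by 0.52, and Ndufb2 of the same complex fell by 0.81, from 137, 169.6 and 180.1 TPM to 97.7, 82.8 and 93.5 TPM. Cox7a2l and Atp5g2, named after their values were seen, fell by 0.52 and 0.34, calls lost without knockout replicate 2 (0.0597 and 0.0553) and, for Cox7a2l, without control replicates 1 (0.0631) or 2 (0.0525) or knockout replicate 3 (0.0552). There were 6 risers without control replicate 3 or knockout replicate 1, 8 without knockout replicate 3, and 1 faller without knockout replicate 2. Proteasome genes gave 5 risers of 38, or 1 without control replicate 1 or 3 or knockout replicate 1 or 3 or when the 6 libraries were fitted alone, 3 under median-of-ratios scaling and 8 with structural and histone genes left out.

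Histone genes took 12.6%, 13.7% and 15.3% of TPM in controls and 15.9%, 17% and 15.2% in knockouts (two-sided exact permutation p = 0.2), with control replicate 3 above knockout replicate 3. Of 65 genes 8 rose and 5 fell. Hist1h1c, a linker histone, was at 2598, 2816 and 2936 TPM and 4046, 4154 and 3952 TPM, and Hist2h2be at 3.16, 3.74 and 3.57 TPM and 9.46, 8.65 and 10 TPM. Hist3h2ba fell from 29.7, 46 and 36.6 TPM to 5.27, 5.23 and 11.5 TPM and Hist1h2bf from 883, 881 and 1024 TPM to 359.8, 437 and 410.3 TPM. Histone genes of a class have near-identical coding sequences, so reads may be divided among copies. The number of risers was 2 without control replicate 1, 4 without control replicate 2, 3 without knockout replicate 1 or 2 and 4 without knockout replicate 3, and 1 under median-of-ratios scaling.

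Selenoprotein genes gave 3 risers and 5 fallers of 18. Selm (selenoprotein M) was at 27.5, 19.5 and 24.4 TPM in controls and 3.47, 3.51 and 3.65 TPM in knockouts, a fall of 2.43 ± 0.15 with no overlap (limma adjusted p = 1.13e-09). Gpx1 and Sephs2, a peroxidase and the enzyme that activates selenium, rose by 0.41 and 0.38. Of the 18 genes 3 fell without control replicate 1, without any 1 knockout library or when the 6 libraries were fitted alone. Iron genes and metallothioneins gave 3 risers and 1 faller of 14, with Mt1 at 261, 226 and 269 TPM and 489.9, 373 and 413 TPM, Ncoa4, the ferritin receptor of autophagy, up by 0.49, and Aco1, the iron-responsive RNA-binding protein, from 18.4, 19.9 and 18.3 TPM to 12.1, 9.24 and 12.2 TPM. Mt1 did not pass without knockout replicate 1 (limma adjusted p = 0.0503). Ftl1, ferritin light chain, rose by 0.53, a call lost without any single library but control replicate 1 (adjusted p of 0.0607 to 0.0817), and 1 of the 14 rose without knockout replicate 1.

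Outside these lists, the genes with the largest differences among those with at least 5 TPM and no overlap of groups were as follows. Clec2i, a ligand of a natural killer receptor, rose from 2.1, 1.79 and 1.24 TPM to 18.1, 12.6 and 15.3 TPM, and Dgat2, which makes triglycerides, from 10.5, 10.1 and 7.36 TPM to 32.4, 35.4 and 41.2 TPM. C3, the third complement component, rose from 74.7, 32.6 and 36.1 TPM to 117, 206 and 131 TPM. All knockouts were above all controls in these. Cnn3 (calponin 3), an actin-binding protein, fell from 17.1, 19.7 and 15.6 TPM to 2.4, 2.54 and 2.72 TPM. Prss50, a testis-type serine protease, fell from 6.06, 11.2 and 9 TPM to 0.19, 0.25 and 0.65 TPM. Plbd1, a phospholipase B-like protein, fell from 16.3, 21 and 6.3 TPM to 0.49, 1.44 and 1.99 TPM, with control replicate 3 the lowest control as for the class II genes. Amd2, a copy of the gene for S-adenosylmethionine decarboxylase that can share its reads, was at 72, 85.2 and 21.6 TPM and 16.4, 4.64 and 2.29 TPM. Its call was lost without control replicates 1 (0.065) or 2 (0.0824) or knockout replicates 2 (0.0632) or 3 (0.0985). Snora62, a small nucleolar RNA too short for this kind of library, was at 11.6, 15.7 and 36 TPM in controls and is listed at 0 in knockout replicates 1 and 2, with 8.23 TPM in replicate 3. That call was lost without any single library but control replicate 1 or knockout replicate 3 (0.0713 to 0.145).

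Called genes were not evenly spread over base composition. Among the quintile of tested genes with the lowest GC content in their transcripts, 15.9% were higher and 5.13% lower in the knockout. In the quintile with the highest GC content, 9.3% were higher and 15.7% lower. Spearman's rho between GC content and the log2 difference was -0.187 over genes, and -0.186 without the cytosolic ribosomal protein genes, a description over genes measured in the same 6 libraries. With transcript length rho was 0.028. Base composition also affects library preparation, and its part in the calls was not tested. Of core promoter motifs, TATAAA between 35 and 20 bases before the start was found for 1.49% of tested genes, 1.97% of the higher and 1.93% of the lower ones. CCAAT was present in 43.5%, 39% and 45.1% of these sets and GGGCGG, the SP1 box, in 68.1%, 69.4% and 67.8%, on either strand of the 300 bases.

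**Figure D4:**
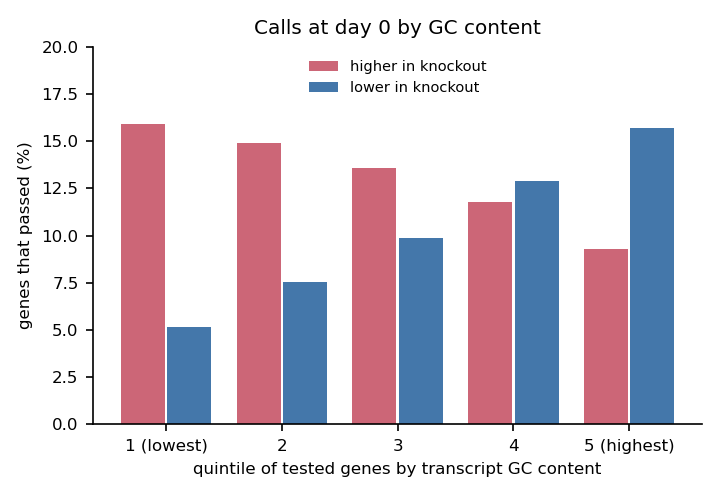
Share of tested genes that passed as higher (red) or lower (blue) in the knockout, in percent, for each quintile of genes by the GC content of their transcripts. The share of higher genes decreases from 15.9% in the lowest quintile to 9.3% in the highest, and the share of lower genes increases from 5.13% to 15.7%.

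The difference between knockout and control was then set against that at day 3, after culture with SCF and IL-3. The differences at both days were compared directly, as day 0 minus day 3, and 2073 genes (17.3%) had a higher and 1793 (15%) a lower value at day 0. Taf1 fell by 0.61 at day 0 and its difference was -0.17 at day 3, a day 0 minus day 3 value of -0.44 ± 0.11 (limma adjusted p = 0.00546). Cdkn1a had a difference of 1.95 at day 0 and -0.27 at day 3, a change of 2.22 ± 0.25, with controls at 62.3 ± 9.79 TPM on day 3 against 1.7 ± 0.436 TPM on day 0. Lyz2 went from a difference of 1.61 to one of -0.89, and Clec2i from 2.59 to -0.94. Cnn3 had a difference of -2.37 at day 0 and 0.01 at day 3. Among the transcription genes, Hexim1 had differences of 1.12 and 1.07 (day 0 minus day 3 0.05 ± 0.14, limma adjusted p = 0.828), and Larp7 had -1.01 at day 0 and -0.12 at day 3. Interferon-stimulated genes had a median of 0.63 at day 0 and -0.02 at day 3, and p53 targets 0.31 and -0.26. TFIID genes had 0.39 and 0.62, S phase genes 0.03 and 0.70, megakaryocyte genes 0.05 and -1.62, and Myc and nucleolar genes -0.06 and 0.80. These list medians were not tested against each other, and the median of all genes was 0.057 at day 0 and -0.009 at day 3.

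**Figure D5:**
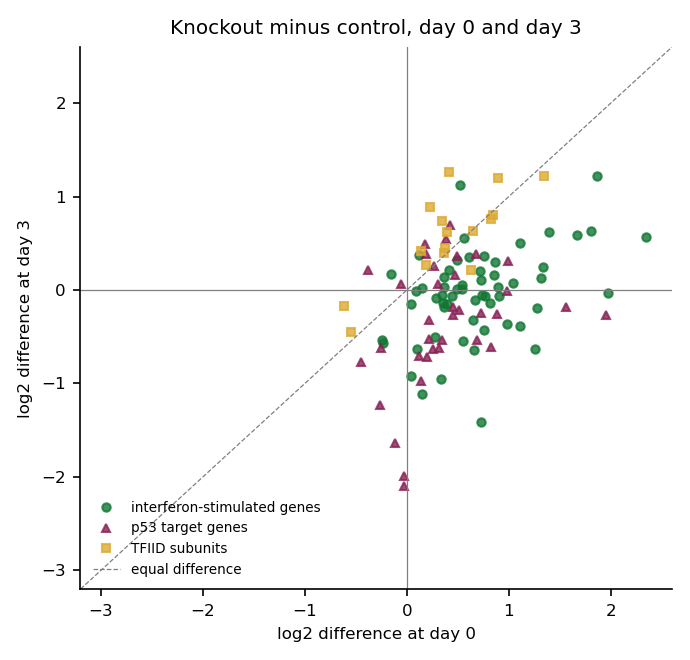
Each point is a gene, with its log2 difference between knockout and control at day 0 on the horizontal axis and at day 3 on the vertical axis, for 3 gene lists. Interferon-stimulated genes spread to the right at day 0 (median 0.63) and around 0 at day 3 (median -0.02), while most TFIID genes are above 0 on both axes.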

How the data were processed

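RNA-seq of total RNA was analysed from 3 control and 3 Taf1 knockout libraries at day 0, in the setting of the 24 libraries of the macrophage course. The authors deposited the values as TPM per gene for 24411 genes, without counts, so sequencing depth and counting error cannot be given. The submitters' processing notes name RSEM (no version in the sources used here), DESeq2 1.38.3 and the mm10 build. The 12 columns that both deposited tables share were equal.

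A gene was tested when 3 or more of the 24 libraries held 1 TPM or more, which left 11953 genes. Values were taken as log2(TPM + 1), which understates the change of low genes, and compared by limma 3.58.1 (R 4.3.3) using 1 coefficient for each of 8 groups, 16 residual degrees of freedom, a variance trend and Benjamini-Hochberg adjustment at 0.05. Shares of TPM were compared by a two-sided exact permutation test. The fit was tested on simulated data.

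The 46 gene lists (1313 symbols, 11 without a match), the members and the tests were chosen with earlier results of these data known. Named genes were the TFIID subunits, 20 fixed genes, cell type markers and the 10 most abundant genes. They also included up to 6 passing members per list with the smallest p and its 2 most abundant members. The 15 largest rises and falls were taken among genes that passed at day 0, reached 5 TPM and had no overlap of groups. The 8 largest differences from day 3 in each direction were taken among such genes that also passed that contrast. Some genes that the rule names are not reported here. Gene positions, transcript lengths and GC content were taken from GENCODE M21 and promoters from RefSeq (GRCm38.p6), with lengths for 99.4% and promoters for 80.7% of tested genes. The alternatives were other pseudocounts (0.1 and 5 TPM), filters (0 and 5 TPM) and scalings, day 0 fitted alone, a replicate block and each library left out.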

Additional observations from a re-analysis of the deposited data

Results flagged for a closer look

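The difference between knockout and control changed from day 0 to day 3 in the genes below, by the test of the difference itself (limma, adjusted p under 0.05, day 0 minus day 3 on the log2 scale), which passed for 32.3% of all tested genes. They are the 8 largest changes in each direction among genes that also passed at day 0, and Taf1. Those genes had at least 5 TPM in a day 0 group and day 0 libraries that did not overlap. Genes without a call at day 0 were left out, whatever the size of their change.

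Higher at day 0 were Chil3 (4.99), Clec2i (3.53), Lcn2 (2.73), Serpinb6a (2.66), Lyz2 (2.5), S100a9 (2.38), Cdkn1a (2.22) and Gadd45g (2.15). Chil3, Lcn2 and S100a9 rose at day 0 and had differences of -0.32, -0.05 and 0.64 at day 3, where the controls had reached 23200 ± 9490, 2150 ± 399 and 40500 ± 5570 TPM (SD, n = 3). Serpinb6a, an intracellular protease inhibitor, stood at 9.14, 8.96 and 9.06 TPM in day 0 controls and 14.7, 17.1 and 14.9 TPM in day 0 knockouts, and at 71.5 ± 6.34 TPM and 17.8 ± 0.364 TPM at day 3. Its difference was thus 0.72 at day 0 and -1.94 at day 3. Gadd45g, a growth arrest gene, had 1.20 at day 0, from 1.71, 1.95 and 1.77 TPM to 5.81, 4.39 and 6.38 TPM, and -0.95 at day 3.

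Lower at day 0 were Amd2 (-5.38), Cnn3 (-2.38), Ifi205 (-2.31), Prss50 (-2.27), Cd74 (-2.26), Bex6 (-1.89), Plbd1 (-1.87) and Cd27 (-1.71), and Taf1 changed by -0.44. Ifi205, an interferon-inducible HIN200 gene, was at 7.67, 11.3 and 3.04 TPM in day 0 controls and 0.17, 0.62 and 1 TPM in day 0 knockouts, against the direction of most interferon-stimulated genes, and at day 3 it was near 0 in both genotypes. Cd74, the class II invariant chain, fell at day 0 from 111, 123 and 37.6 TPM to 3.59, 8.68 and 24.1 TPM and had a difference of -0.71 at day 3. Bex6 was at 49, 57.9 and 45.4 TPM and 34.1, 29.9 and 36.9 TPM at day 0, and at 4.47 ± 1.09 TPM and 12.5 ± 2.17 TPM at day 3. Its fall at day 0 lost the call without control replicate 2 (adjusted p = 0.101) or knockout replicates 1 (0.0523) or 2 (0.0917). Amd2 varied between replicates at day 3 (20 ± 28.6 TPM in knockouts), and its value ranged from -6.68 to -4.04 with single libraries left out.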

How the results depend on the processing

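The day 0 counts of 1568 higher and 1222 lower genes moved by over 1.5 times in 4 settings: 2501 higher without the short structural and histone RNAs, 1897 lower with median-of-ratios scaling, 759 higher without control replicate 3 and 806 lower without control replicate 2. With single libraries left out they ranged from 759 to 1631 higher and from 806 to 1154 lower. Scaling by construction sets the reference for all genes at once, and for the libraries left out the cause was not tested. The fall of the ribosomal share was -6.32 percentage points, and -8.16 with structural and histone genes left out. Taf1 differed by -0.7 to -0.46 under every alternative and passed in each.

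Of 201 genes named, 184 had the same direction and call under median-of-ratios scaling, 197 with a pseudocount of 5 TPM, 178 with the 6 libraries fitted alone, and 170 to 186 with a library left out. Those that changed sign had not passed. Under median-of-ratios scaling these were Car1 (-0.047), Cebpa (-0.011), Mpo (-0.032), Procr (-0.004) and Trp53 (-0.032). With single libraries left out, Camp ranged from -0.13 to 1.41, Car1 from -0.2 to 0.48, Car2 from -0.31 to 0.24, Flt3 from -0.31 to 0.055, Kit from -0.16 to 0.023, Mmp8 from -0.16 to 0.034, Mpo from -0.075 to 0.27, Pf4 from -0.044 to 0.4, Procr from -0.1 to 0.23, Taf7 from -0.02 to 0.23 and Trp53 from -0.0095 to 0.12.

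At day 0 the deviations of equal replicate numbers correlated at -0.249, -0.123 and 0.0397, and those of different numbers at -0.303 to 0.404. At day 3 equal numbers correlated at 0.327, 0.211 and 0.0032. Deviations from means of 3 libraries cannot settle whether the numbers pair the libraries. With a replicate block 3064 genes passed at day 0 (2644 of the 2790 among them), and 4196 in place of 3866 differed between day 0 and day 3. Supt3 and Tlr3 then lost their calls. Without recorded depth, no limit can be set for genes near 0 TPM.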
